A study of Capra hircus with 6 samples.

Results

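The genes described here are 50 genes of the mitotic spindle and of the passage from G2 into mitosis, taken as a fixed list of symbols among 16285 genes measured in cultured goat cells. The list holds mitotic cyclins and kinases, the chromosomal passenger complex, kinetochore and checkpoint proteins, partners of the anaphase-promoting complex, kinesin motors, microtubule-binding proteins, cytokinesis factors and chromosome proteins. All 50 symbols had a row in both deposited tables, and all 50 passed the filter on low values. The list was drawn up by gene function, with earlier results of these data known, so it is not independent of them.

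RNA was sequenced from adipose mesenchymal stem cells of the goat (Capra hircus), stromal cells of fat with the capacity to become adipocytes. There were 2 groups of 3 libraries: control cells with the genotype label WT, and cells whose genotype label was overexpression of YAP. The treatment label of all 6 was adipogenic differentiation, so the controls carried it too. The series' design text names a TAZ line where the sample labels name YAP, and the vector, the number of clones or animals, the animals' age and the day of differentiation are not stated in the labels or design text. The labels do not say whether replicates were separate cultures, so the p-values reflect only how these samples vary, and that variation may be technical.

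Values are FPKM, fragments per kilobase of gene model and of library size, and the totals they imply were 32593380 to 37131015 fragments per library. YAP1 itself stood at 25.8, 27.0 and 28.9 FPKM in control replicates 1 to 3 and at 28.4, 25.6 and 28.2 FPKM in the libraries labelled YAP (log2 change 0.01, limma adjusted p = 0.95), so the groups are named here by their labels alone. The related co-activator gene WWTR1, which encodes TAZ, was at 30.2, 29.9 and 35.9 FPKM in controls and 21.9, 19.2 and 23.1 FPKM in the other group (log2 change -0.56, limma adjusted p = 0.0013), and the kinase gene LATS2 averaged 7.64 and 8.66 FPKM (limma adjusted p = 0.17, and 0.0498 after median-of-ratios scaling). In the columns used here control and labelled YAP values came from different tables, and the part of the table in the results was not tested. The labels do not say whether control cells carried an empty vector. The stromal markers COL1A1, COL3A1, DCN and VIM were abundant in every library. Among adipocyte markers PPARG was at 0.06 and 0.05 FPKM and ADIPOQ at 0.12 and 0.11 FPKM on average in control libraries and those labelled YAP. Of the 12 stromal markers 7 rose and 2 (16.7%) fell, beside 12.9% of all tested genes higher and 23.0% lower. Their summed level was 24695 to 26158 FPKM in controls and 30848 to 30984 FPKM in the other group. The summed level of 5 mural markers, most of it ACTA2, was 379 to 593 FPKM in controls and 741 to 839.8 FPKM in the other group. Of these markers 3 were tested, of which 1 rose and 1 fell, so the sum does not speak for each of them. The fall was not called after median-of-ratios scaling. The sums were 19.0 to 21.6 and 10.6 to 12.5 FPKM for mature adipocyte markers, most of it CIDEC, and 22.8 to 26.2 and 30.3 to 32.3 FPKM for 9 leukocyte markers. Among the latter PTPRC, CD74 and AIF1 were at or near 0 in both groups, CD68 fell, with means of 4.53 ± 0.437 and 2.03 ± 0.278 FPKM, CD14 rose, with means of 9.58 ± 1.38 and 18.6 ± 0.173 FPKM, and LAPTM5 stood at 9.47 ± 0.228 and 10.2 ± 0.820 FPKM. The 5 endothelial markers measured summed to 0.336 to 0.533 FPKM in controls and 0.215 to 0.293 FPKM in the other group, with CDH5 and KDR at or near 0, PECAM1 at 0.37 and 0.045 FPKM and VWF at 0.032 and 0.10 FPKM on average. Epithelial markers summed to 0.134 to 0.498 and 0.114 to 0.207 FPKM. Their part in the results below was not tested.

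Entry into mitosis is driven by cyclin-dependent kinase 1 bound to cyclins A and B, with the Polo-like and Aurora kinases acting on centrosomes, spindle and chromosomes. Chromosomes attach to spindle microtubules at kinetochores, and the spindle checkpoint holds back the anaphase-promoting complex until every kinetochore is attached. Most of these genes are transcribed in G2 and M, so in a bulk sample their RNA level follows both how many cells are dividing and how much RNA each such cell holds. Fewer dividing cells and less RNA per cell cannot be told apart in these libraries.

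Of the 50 mitotic genes, 28 fell in the libraries labelled YAP and 0 rose, at limma adjusted p under 0.05. In the same fit 23.0% of all 10761 tested genes were lower and 12.9% were higher. The median log2 change, taken on the log2(FPKM + 1) scale, was -0.32 over the members and -0.10 over all tested genes, and 17.2% of all tested genes had a change as low as the members' median or lower. The 28 members fell by 16.4% to 37.8% in mean FPKM, and every member stayed within a 2-fold change. In 31 of the 50 members all 3 libraries labelled YAP lay below all 3 controls, as in 3400 of the 10761 tested genes (31.6%). They lay above all 3 controls in 0 members, beside 16.7% of all tested genes. The remaining 22 members did not pass, with log2 changes from -0.30 to 0.27, and the 2 with a change above 0 were INCENP and KIF14.

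After median-of-ratios scaling, which sets the typical gene to the same level in every library, 17 of the 28 remained lower and 0 members were higher, beside 14.0% of all tested genes lower and 15.8% higher. The members' median log2 change was then -0.24 and that of all tested genes -0.02. All 3 libraries labelled YAP then lay below all 3 controls in 27 of the 50 members, beside 21.6% of all tested genes. They lay above all 3 controls in 1 member, KIF14, beside 22.5%. Of all calls in the deposited FPKM 64.0% were lower, and 47.0% after the scaling. Leaving out the YAP library of replicate 1 left 14 of the 28 members lower in the deposited FPKM, 28.0% of the 50, beside 12.9% of all tested genes in that fit. Without that library and with the scaling, 4 members (8.0%) were lower, beside 7.79% of all tested genes.

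**Figure D1:**
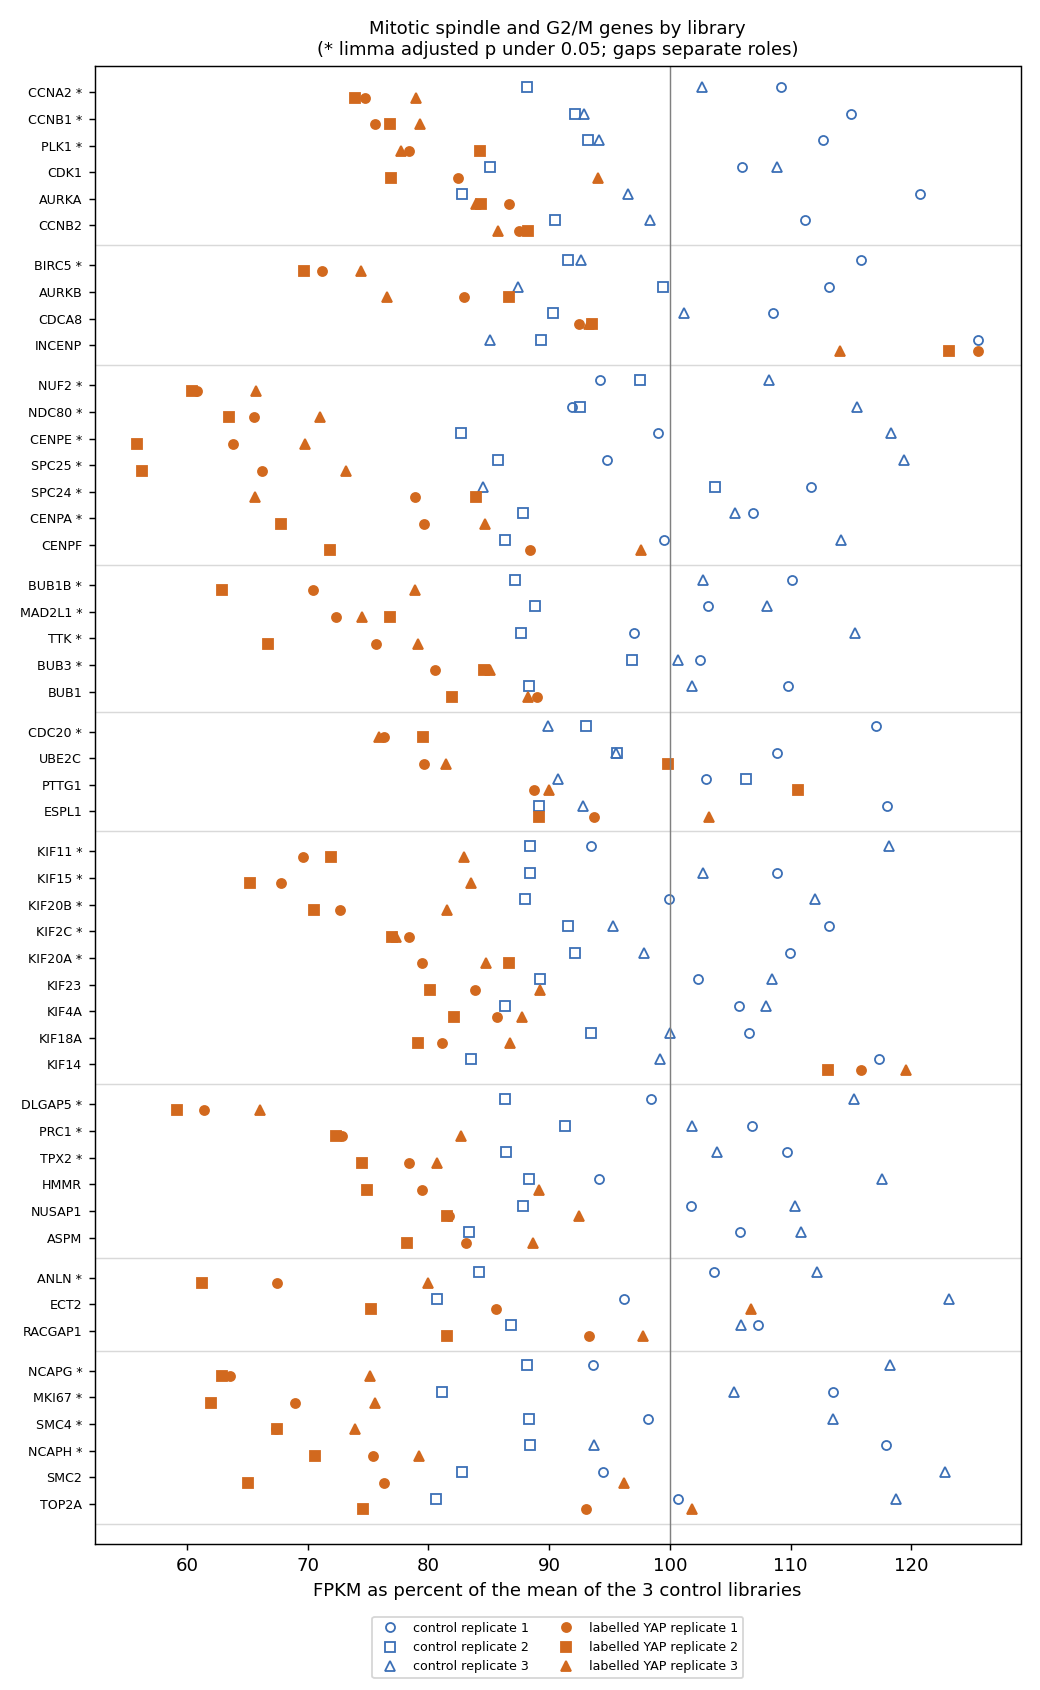
FPKM of each member in the 6 libraries, as a percentage of the mean of the 3 control libraries, with members grouped by role and an asterisk where the limma adjusted p is under 0.05. In most rows the filled symbols (libraries labelled YAP) sit to the left of the open ones (controls), INCENP and KIF14 lie to the right, and control replicate 2 is the lowest control in 42 of 50 rows.

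The libraries of each group differed among themselves in a shared way. Summed over the 50 members, the level was 1199, 1012 and 1121 FPKM in control replicates 1 to 3 and 871, 881 and 909.9 FPKM in the libraries labelled YAP. Control replicate 2 was the lowest control, and its sum lay above that of every library labelled YAP. It held the lowest control value of 42 members, while replicate 2 of the libraries labelled YAP held the lowest value of its group for 34. The mean sum was 1111 ± 94.2 FPKM in controls and 887 ± 20.2 FPKM in the other group (SD, n = 3 each). The median coefficient of variation of a member was 12.9% among controls and 6.25% among the libraries labelled YAP, beside 9.83% and 7.59% for all tested genes. A member's value in a library rested on 185 to 12283 reads, which gives a counting error of 7.35% at the fewest reads and 0.90% at the most.

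Of 6 mitotic cyclins and entry kinases, 3 (50%) fell, beside 23.0% of all tested genes. Median-of-ratios scaling left 2 (33.3%) lower, beside 14.0%. Means are given ± SD over the 3 libraries of a group. CCNB1, cyclin B1, which activates CDK1 at mitotic entry, stood at 75.4, 60.4 and 60.9 FPKM in control replicates 1, 2 and 3 and 49.5, 50.4 and 52.0 FPKM in the libraries labelled YAP. All 3 libraries labelled YAP lay below the lowest control, and control replicate 1 stood above the other controls. The level fell by 22.7%, the group means being 65.5 ± 8.49 and 50.6 ± 1.25 FPKM (log2 change -0.36, SE 0.09, limma adjusted p = 0.012). CCNA2, cyclin A2, which acts in S phase and G2, stood at 30.2, 24.4 and 28.4 FPKM in controls and 20.7, 20.5 and 21.9 FPKM in the libraries labelled YAP. The groups did not overlap, and the gene fell by 24.1% (log2 change -0.38, SE 0.09, limma adjusted p = 0.0077). PLK1, the Polo-like kinase of centrosome maturation and mitotic exit, went from 13.8, 11.4 and 11.5 to 9.62, 10.3 and 9.53 FPKM, without overlap, and fell by 19.9% (log2 change -0.29, SE 0.09, limma adjusted p = 0.032). CDK1 stood at 16.5, 13.3 and 17.0 FPKM in control replicates 1, 2 and 3 and 12.8, 12.0 and 14.7 FPKM in the libraries labelled YAP. The highest of the latter exceeded control replicate 2, so that the groups overlapped, and the gene did not pass (log2 change -0.22, 95% confidence interval -0.46 to 0.01, limma adjusted p = 0.13). CCNB2 and AURKA, the Aurora kinase of the spindle poles, did not pass either, at log2 changes of -0.19 and -0.21. In mean FPKM, CCNB1 stood at 4.21 times CDK1 in controls and 3.85 times in the libraries labelled YAP, ratios that depend on gene model lengths. The PLK1 call did not hold under median-of-ratios scaling (limma adjusted p = 0.11) and without control replicate 1 (0.092), YAP replicate 1 (0.12) or YAP replicate 3 (0.091), and that of CCNB1 without YAP replicate 1 (limma adjusted p = 0.055).

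Of the 4 subunits of the chromosomal passenger complex, which corrects faulty attachments and later guides cytokinesis, 1 fell. That is 25%, close to the 23.0% among all tested genes. BIRC5, survivin, stood at 41.1, 32.5 and 32.8 FPKM in control replicates 1, 2 and 3 and 25.2, 24.7 and 26.4 FPKM in the libraries labelled YAP. The groups did not overlap, with control replicate 1 highest, and the gene fell by 28.2% (log2 change -0.46, SE 0.10, limma adjusted p = 0.004). AURKB, the kinase of the complex, stood at 18.3, 16.1 and 14.1 FPKM in controls and 13.4, 14.0 and 12.4 FPKM in the libraries labelled YAP. Its groups did not overlap, but the highest of the latter lay just under control replicate 3, and the gene did not pass (log2 change -0.26, 95% confidence interval -0.48 to -0.04, limma adjusted p = 0.063). INCENP, the scaffold that activates AURKB, stood at 15.7, 11.1 and 10.6 FPKM in control replicates 1, 2 and 3 and 15.7, 15.4 and 14.2 FPKM in the libraries labelled YAP. Control replicate 1 was as high as the libraries labelled YAP, and the other controls lay below all of these. The gene did not pass (log2 change 0.27, 95% confidence interval -0.00 to 0.55, limma adjusted p = 0.11). Without control replicate 1 it was higher (log2 change 0.44, limma adjusted p = 0.0063), and with limma-voom on reads recovered from the FPKM likewise (log2 change 0.39, limma adjusted p = 0.043). CDCA8, borealin, stood at 16.1 ± 1.48 and 15.0 ± 0.0912 FPKM, with limma adjusted p = 0.42.

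The kinetochore genes held the largest share of falls among the roles: 6 of 7 (85.7%) fell, beside 23.0% of all tested genes. Median-of-ratios scaling left 4 of them lower, 57.1% of the 7, beside 14.0%. The difference between roles was not tested. NUF2 and NDC80 form the outer arm of the NDC80 complex, which grips the microtubule. NUF2 stood at 13.2, 13.7 and 15.2 FPKM in control replicates 1, 2 and 3 and 8.55, 8.49 and 9.24 FPKM in the libraries labelled YAP. Every library labelled YAP lay well below the lowest control, and the gene fell by 37.7% (log2 change -0.62, SE 0.09, limma adjusted p = 0.00025). NDC80 stood at 15.8, 15.9 and 19.9 FPKM in controls and 11.3, 10.9 and 12.2 FPKM in the libraries labelled YAP, with control replicate 3 highest and no overlap. It fell by 33.3% (log2 change -0.54, SE 0.10, limma adjusted p = 0.0018). SPC24 and SPC25 form the inner arm of the same complex. SPC24, the most abundant kinetochore member, went from 69.4, 64.5 and 52.5 to 49.0, 52.1 and 40.8 FPKM, where YAP replicate 2 lay just under control replicate 3. The gene fell by 23.9% (log2 change -0.38, SE 0.12, limma adjusted p = 0.024). SPC25 fell, with means of 3.40 ± 0.592 and 2.22 ± 0.290 FPKM (log2 change -0.45, SE 0.12, limma adjusted p = 0.011). The complex holds its 4 subunits in equal number. In mean FPKM, SPC24 stood at 18.2 times SPC25 in controls and 21.3 times in the other group, while all 4 genes fell. FPKM divides by the length of the gene model, and in control replicate 1 the reads were 1800 for SPC24 and 566 for SPC25. The ratio between these genes thus depends on gene model lengths as well as on reads, and an imbalance of their RNA was not tested. CENPE, the kinesin that carries chromosomes to the spindle equator, stood at 3.77, 3.15 and 4.50 FPKM in control replicates 1, 2 and 3 and 2.43, 2.13 and 2.66 FPKM in the libraries labelled YAP. All of the latter lay below the lowest control, and the gene fell by 36.9% (log2 change -0.49, SE 0.12, limma adjusted p = 0.0071). CENPA, the histone variant that marks the centromere, fell from 18.3 ± 1.94 to 14.2 ± 1.59 FPKM (limma adjusted p = 0.023). CENPF did not pass, at 5.90 ± 0.821 and 5.07 ± 0.770 FPKM. The calls of SPC24 and CENPA did not hold under median-of-ratios scaling (limma adjusted p = 0.085 and 0.069). Without YAP replicate 1 they were at 0.052 and 0.059, and without control replicate 1 at 0.11 and 0.087. That of SPC24 was also lost without YAP replicate 3 (limma adjusted p = 0.084) or control replicate 2 (0.061), and that of CENPA without YAP replicate 2 (0.079) or control replicate 3 (0.059).

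Of the 5 spindle checkpoint genes, 4 (80%) fell, and 2 (40%) after median-of-ratios scaling, beside 23.0% and 14.0% of all tested genes. MAD2L1, which binds CDC20 and so restrains the anaphase-promoting complex, stood at 27.1, 23.4 and 28.4 FPKM in control replicates 1, 2 and 3 and 19.0, 20.2 and 19.6 FPKM in the libraries labelled YAP. The groups did not overlap, control replicate 2 being the lowest control, and the gene fell by 25.5% (log2 change -0.40, SE 0.09, limma adjusted p = 0.0048). BUB1B, the BubR1 subunit of the same inhibitory complex, stood at 21.2, 16.8 and 19.8 FPKM in controls and 13.6, 12.1 and 15.2 FPKM in the libraries labelled YAP, without overlap. It fell by 29.2% (log2 change -0.47, SE 0.11, limma adjusted p = 0.0059). BUB3, the adaptor that binds BUB1 and BUB1B, stood at 46.5, 44.0 and 45.7 FPKM in control replicates 1, 2 and 3 and 36.6, 38.4 and 38.7 FPKM in the libraries labelled YAP. Its spread within groups was small, and it fell by 16.6% (log2 change -0.26, SE 0.07, limma adjusted p = 0.018). In mean FPKM, BUB3 stood at 3.88 times BUB1 in controls and 3.74 times in the other group, ratios that depend on gene model lengths. TTK, the kinase that recruits the checkpoint proteins, fell from 5.67 ± 0.797 to 4.19 ± 0.363 FPKM (limma adjusted p = 0.022), and BUB1 did not pass, at 11.7 ± 1.27 and 10.1 ± 0.457 FPKM. The calls of BUB3 and TTK did not hold under median-of-ratios scaling (limma adjusted p = 0.093 and 0.057) and without YAP replicate 1 (0.12 and 0.064). TTK was also not called without YAP replicate 2 (limma adjusted p = 0.071), control replicate 1 (0.054) or control replicate 3 (0.064).

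Of the 4 genes that act when sister chromatids are released, 1 (25%) fell, close to the 23.0% among all tested genes. After median-of-ratios scaling 0 were lower, beside 14.0%. CDC20, the activator of the anaphase-promoting complex in mitosis, stood at 88.5, 70.4 and 68.0 FPKM in control replicates 1, 2 and 3 and 57.7, 60.2 and 57.4 FPKM in the libraries labelled YAP. All of the latter lay below the lowest control, and the gene fell by 22.7% (log2 change -0.36, SE 0.10, limma adjusted p = 0.016). UBE2C, the ubiquitin-conjugating enzyme of that complex, was the most abundant of all members, at 92.4, 81.1 and 81.1 FPKM in controls and 67.6, 84.8 and 69.2 FPKM in the libraries labelled YAP. YAP replicate 2 stood above 2 of the controls, and the gene did not pass (log2 change -0.20, 95% confidence interval -0.42 to 0.01, limma adjusted p = 0.13). PTTG1, securin, which holds separase inactive, stood at 32.5, 33.5 and 28.6 FPKM in controls and 28.0, 34.9 and 28.4 FPKM in the other group. The highest value of all was in YAP replicate 2, and the groups overlapped (log2 change -0.05, 95% confidence interval -0.28 to 0.17, limma adjusted p = 0.7). ESPL1, separase itself, stood at 6.57 ± 1.03 and 6.26 ± 0.473 FPKM (log2 change -0.05, 95% confidence interval -0.29 to 0.19, limma adjusted p = 0.73). The CDC20 call did not hold under median-of-ratios scaling (limma adjusted p = 0.06) and without YAP replicate 1 (0.062). The same scaling turned the small changes of PTTG1 and ESPL1 to 0.03 and 0.02.

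**Figure D2:**
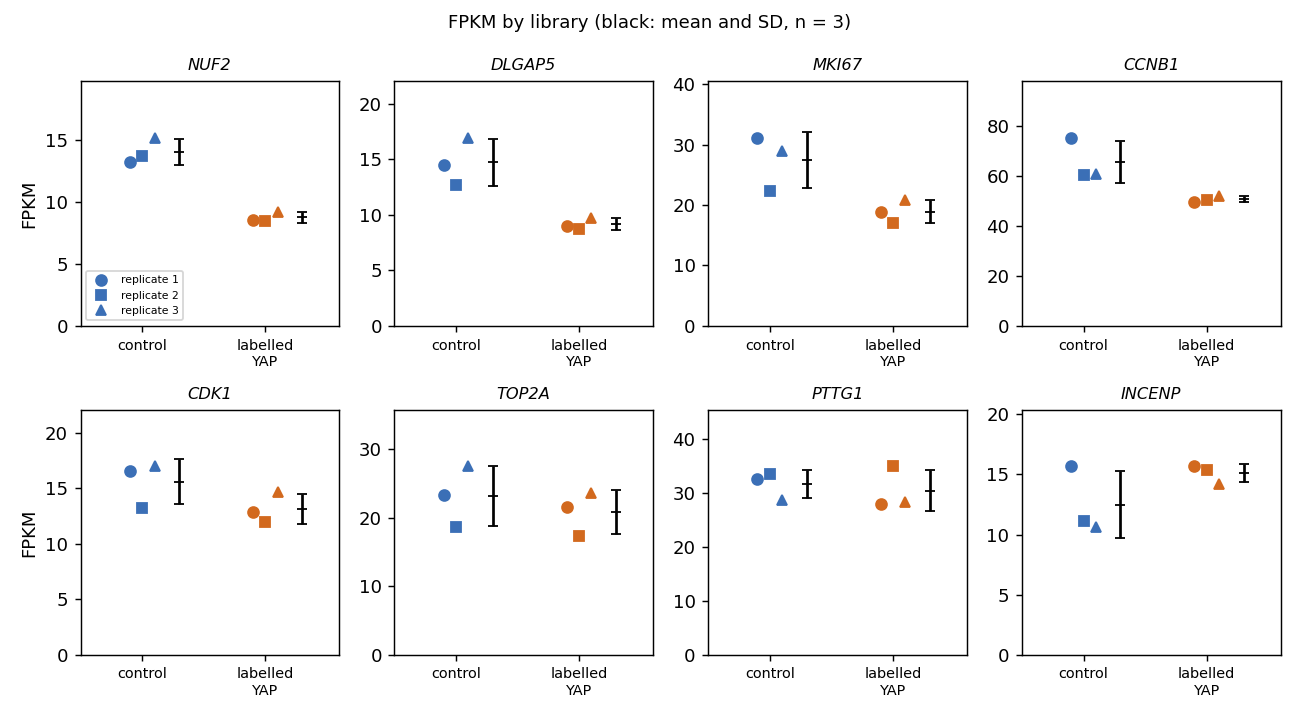
FPKM of 8 members in each library (circles, squares and triangles for replicates 1, 2 and 3), with the mean and SD of each group in black (n = 3), on axes that start at 0. NUF2, DLGAP5, MKI67 and CCNB1 show groups that do not overlap, CDK1, TOP2A and PTTG1 overlap, and in INCENP control replicate 1 stands with the libraries labelled YAP.

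Among 9 kinesin motors, 5 (55.6%) fell and 0 rose, beside 23.0% of all tested genes lower. After median-of-ratios scaling 2 (22.2%) were lower, beside 14.0%. KIF2C, which depolymerises microtubules at the kinetochore, stood at 20.1, 16.2 and 16.9 FPKM in control replicates 1, 2 and 3 and 13.9, 13.6 and 13.7 FPKM in the libraries labelled YAP. The libraries labelled YAP were close together and all below the controls, and the gene fell by 22.4% (log2 change -0.34, SE 0.09, limma adjusted p = 0.014). KIF11, the motor that pushes the spindle poles apart, went from 13.4, 12.7 and 16.9 to 9.97, 10.3 and 11.9 FPKM. Control replicate 3 was the highest library, the groups did not overlap, and the gene fell by 25.2% (log2 change -0.38, SE 0.11, limma adjusted p = 0.022). KIF15, which helps to keep the spindle bipolar, went from 3.97, 3.22 and 3.74 to 2.47, 2.38 and 3.04 FPKM, also without overlap (log2 change -0.36, SE 0.10, limma adjusted p = 0.021). KIF20A, a motor of the central spindle and the most abundant motor of the list, stood at 52.7, 44.2 and 46.9 FPKM in controls and 38.1, 41.5 and 40.6 FPKM in the other group. It fell by 16.4%, the least of the members that passed (log2 change -0.25, SE 0.08, limma adjusted p = 0.04), and KIF20B fell by 25.1% (limma adjusted p = 0.022). KIF14, a motor needed in cytokinesis, stood at 3.48, 2.48 and 2.94 FPKM in control replicates 1, 2 and 3 and 3.43, 3.35 and 3.54 FPKM in the libraries labelled YAP. Control replicate 1 lay among the libraries labelled YAP and the other controls below them, and the gene did not pass (log2 change 0.17, 95% confidence interval -0.06 to 0.40, limma adjusted p = 0.22). KIF18A, KIF23 and KIF4A did not pass, at log2 changes of -0.18, -0.22 and -0.20. The KIF4A row also carries the symbol KIF4B in the deposited table, and how shared reads of such close copies were counted is not stated. Of the 5 that fell, KIF11, KIF20A and KIF20B did not pass once scaled by median of ratios (limma adjusted p = 0.059, 0.16 and 0.057). Without YAP replicate 1 none of the 5 passed (limma adjusted p = 0.054 for KIF2C, 0.093 for KIF15, 0.098 for KIF11, 0.092 for KIF20B and 0.18 for KIF20A). Without control replicate 1 KIF15, KIF20A and KIF20B did not pass (limma adjusted p = 0.078, 0.11 and 0.059), and without control replicate 3 KIF11, KIF20A and KIF20B did not (0.059, 0.054 and 0.062). KIF15 and KIF20B were also lost without YAP replicate 2 (limma adjusted p = 0.066 and 0.064), and KIF20A without YAP replicate 3 (0.076).

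Of 6 proteins that assemble the spindle or bind its microtubules, 3 (50%) fell, beside 23.0% of all tested genes. With median-of-ratios scaling 2 (33.3%) were lower, beside 14.0%. DLGAP5, which stabilises microtubules near chromosomes, stood at 14.5, 12.7 and 17.0 FPKM in control replicates 1, 2 and 3 and 9.03, 8.71 and 9.72 FPKM in the libraries labelled YAP. The highest of the latter lay well under the lowest control. The gene fell by 37.8%, more in percent than any other member (log2 change -0.62, SE 0.10, limma adjusted p = 0.00093). PRC1, which bundles the antiparallel microtubules of the central spindle, stood at 35.3, 30.2 and 33.7 FPKM in controls and 24.1, 23.9 and 27.4 FPKM in the libraries labelled YAP. The groups did not overlap, and the gene fell by 24.0% (log2 change -0.38, SE 0.09, limma adjusted p = 0.0063). TPX2, the activator of AURKA on the spindle, went from 30.0, 23.6 and 28.4 to 21.5, 20.4 and 22.1 FPKM, again without overlap (log2 change -0.34, SE 0.10, limma adjusted p = 0.017). The hyaluronan receptor and spindle protein HMMR, NUSAP1 and the spindle pole protein ASPM stood lower on average and did not pass, at log2 changes of -0.27, -0.22 and -0.21. The TPX2 call did not hold under median-of-ratios scaling (limma adjusted p = 0.055), without YAP replicate 1 (0.059) and without control replicate 1 (0.063).

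In the cytokinesis group 1 of 3 genes (33.3%) fell, beside 23.0% of all tested genes. ANLN, anillin, a scaffold of the contractile ring, stood at 51.7, 42.0 and 56.0 FPKM in control replicates 1, 2 and 3 and 33.7, 30.5 and 39.9 FPKM in the libraries labelled YAP. YAP replicate 3 was closest to control replicate 2, the lowest control. The groups did not overlap, and the gene fell by 30.4% (log2 change -0.51, SE 0.12, limma adjusted p = 0.0069). ECT2, the exchange factor that activates RhoA at the cell equator, stood at 5.16, 4.33 and 6.61 FPKM in controls and 4.59, 4.04 and 5.73 FPKM in the other group. RACGAP1, the centralspindlin subunit that binds ECT2, stood at 40.2, 32.6 and 39.7 FPKM in controls and 35.0, 30.6 and 36.7 FPKM in the other group. In both genes the groups overlapped and replicate 2 was the lowest of each group. Neither passed (log2 change -0.13, 95% confidence interval -0.44 to 0.18, limma adjusted p = 0.49 for ECT2, and log2 change -0.13, 95% confidence interval -0.35 to 0.09, limma adjusted p = 0.33 for RACGAP1).

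Of 6 chromosome proteins, which include common proliferation markers, 4 (66.7%) fell, beside 23.0% of all tested genes. With median-of-ratios scaling 3 (50%) were lower, beside 14.0%. MKI67, Ki-67, which coats mitotic chromosomes, stood at 31.2, 22.3 and 28.9 FPKM in control replicates 1, 2 and 3 and 18.9, 17.0 and 20.8 FPKM in the libraries labelled YAP. All of the latter lay below the lowest control, replicate 2 was lowest in both groups, and the gene fell by 31.2% (log2 change -0.51, SE 0.12, limma adjusted p = 0.0074). TOP2A, the topoisomerase that untangles sister chromatids, stood at 23.3, 18.7 and 27.5 FPKM in control replicates 1, 2 and 3 and 21.6, 17.3 and 23.6 FPKM in the libraries labelled YAP. The spread between replicates was larger than the difference between groups (log2 change -0.14, 95% confidence interval -0.45 to 0.16, limma adjusted p = 0.45). As a pair chosen after their values were seen, MKI67 and TOP2A had ratios of FPKM of 1.34, 1.19 and 1.05 in controls and 0.878, 0.986 and 0.881 in the libraries labelled YAP, a difference that was not tested. The condensin subunits SMC2, SMC4, NCAPG and NCAPH, which compact mitotic chromosomes, all stood lower on average. SMC4 went from 12.6, 11.3 and 14.5 to 8.62, 8.62 and 9.46 FPKM, without overlap, and fell by 30.4% (log2 change -0.47, SE 0.10, limma adjusted p = 0.0038). NCAPG went from 18.9, 17.8 and 23.8 to 12.8, 12.7 and 15.1 FPKM, without overlap, and fell by 32.8% (log2 change -0.53, SE 0.11, limma adjusted p = 0.0041). NCAPH fell from 14.6 ± 2.30 to 11.0 ± 0.626 FPKM (limma adjusted p = 0.019). SMC2, the partner of SMC4, did not pass, at 7.91, 6.93 and 10.3 FPKM in controls and 6.39, 5.44 and 8.06 FPKM in the other group (log2 change -0.30, 95% confidence interval -0.62 to 0.03, limma adjusted p = 0.14). The NCAPH call did not hold under median-of-ratios scaling (limma adjusted p = 0.054), without YAP replicate 1 (0.061) and without control replicate 1 (0.054).

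**Figure D3:**
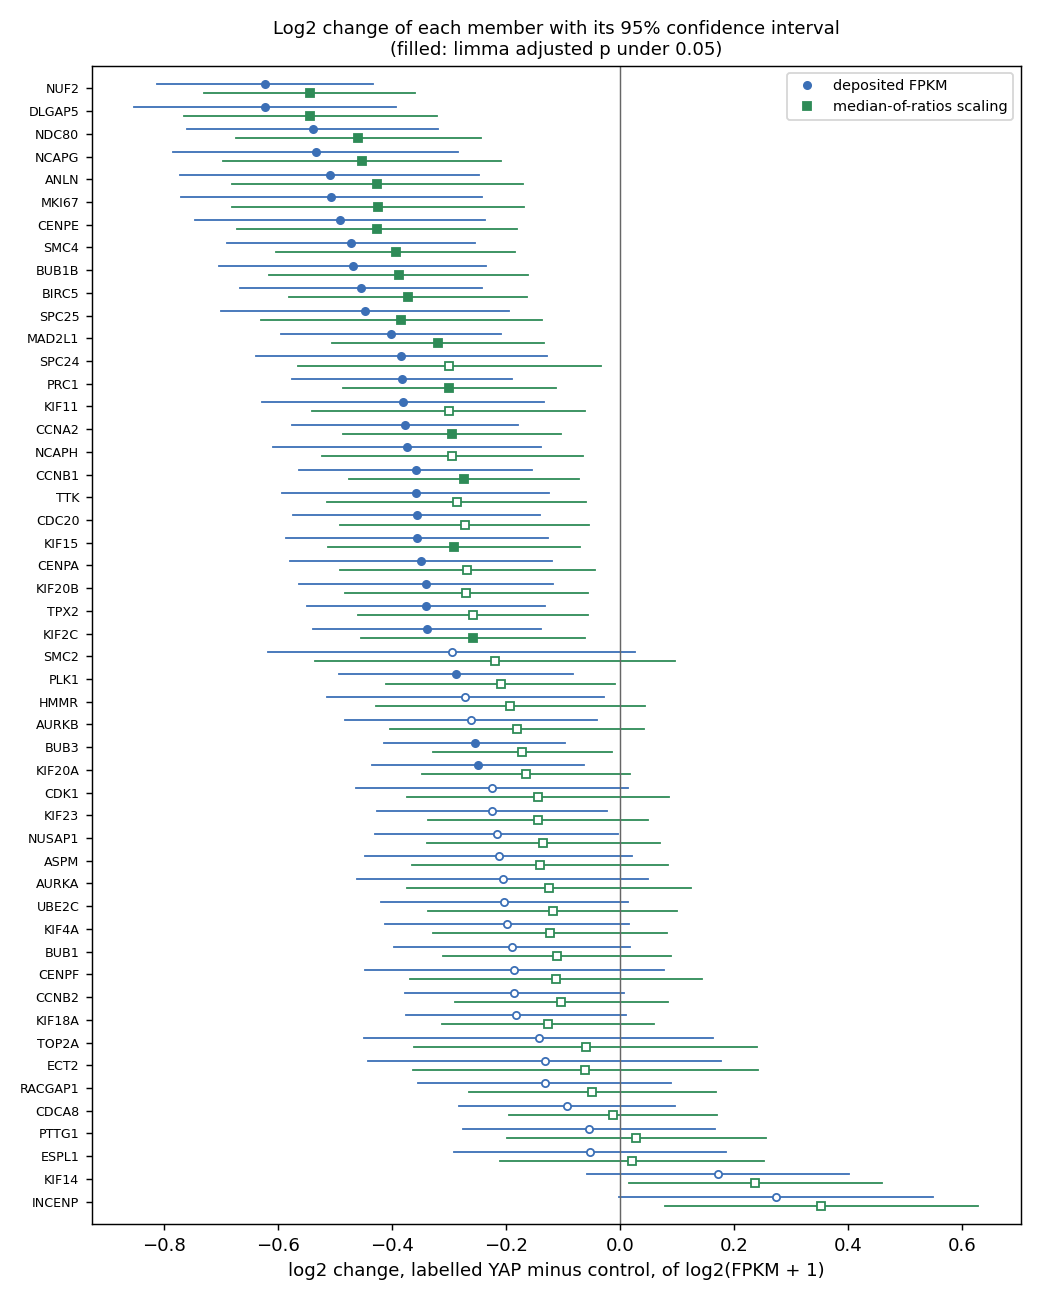
Log2 change of each member (libraries labelled YAP minus controls, on the log2(FPKM + 1) scale) with its 95% confidence interval, in the FPKM as deposited (circles) and after median-of-ratios scaling (squares), filled where the limma adjusted p is under 0.05. NUF2 and DLGAP5 show the largest falls, INCENP and KIF14 lie above 0, and the scaling moves every member to the right, leaving 17 of 28 filled.

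The falls were followed through the fits with 1 library left out. In the deposited FPKM, 14 of the 28 members remained lower in all 6 such fits: CCNA2, BIRC5, CENPE, NDC80, NUF2, SPC25, BUB1B, MAD2L1, DLGAP5, PRC1, ANLN, MKI67, NCAPG and SMC4. The limma adjusted p of these 14 ran from 3.9e-04 to 0.041 in the 6 fits. They are the same 14 that remained lower without YAP replicate 1, and the other fits removed none of them. Which members are on this list thus rests on that fit. Across all 21 alternative fits, 4 members were lower in every one: CENPE, NDC80, NUF2 and DLGAP5. None of the 28 changed direction in any of the 21 fits, and 7 of the 22 that did not pass did so in at least 1. The 28 were picked by passing in these same libraries, and the 22 hold changes near 0. That difference was therefore largely set by the selection. Of the same 22, 15 passed the threshold in at least 1 of the 21 fits, INCENP in 5, AURKB in 4 and HMMR and SMC2 in 3 each. Each of the 6 fits of the deposited FPKM put 12.9% to 21.1% of all tested genes lower. How many of all tested genes kept or gained a call over the 6 or the 21 fits was not counted. These counts of members therefore have no share of all tested genes beside them.

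**Figure D4:**
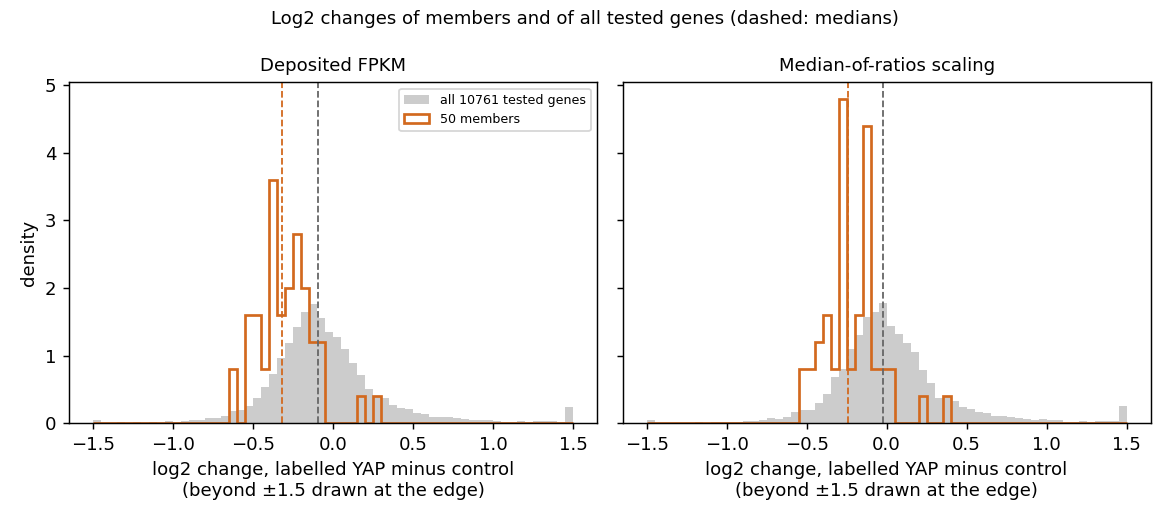
Distribution of log2 changes of all 10761 tested genes (grey) and of the 50 members (line), as densities, in the FPKM as deposited and with median-of-ratios scaling, with dashed lines at the medians. The members' median is -0.32 against -0.10 for all tested genes in the first panel and -0.24 against -0.02 in the second, and no member reaches a 2-fold change.

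The members were set beside 8 lists of other genes of the cell cycle, described by their counts alone. These lists hold 167 different tested genes, of which 60 (35.9%) fell and 2 rose, beside 23.0% of all tested genes lower. After median-of-ratios scaling 39 (23.4%) were lower, beside 14.0%. Of 29 other spindle and centrosome genes, 13 fell: TUBB, the beta tubulin of the microtubule itself, went from 831 ± 12.6 to 618 ± 16.2 FPKM (log2 change -0.43, limma adjusted p = 0.0013), the tubulin-binding gene STMN1 from 266 ± 21.2 to 197 ± 10.5 FPKM and the spindle protein gene CKAP2 from 36.1 ± 3.46 to 26.3 ± 1.25 FPKM. After median-of-ratios scaling 9 of the 29 were lower. Of 30 other kinetochore genes, 12 fell. The centromere genes CENPP (log2 change -0.52) and CENPC (-0.36) and SKA3 (-0.42), whose complex works beside the NDC80 complex, had the smallest adjusted p among them. After median-of-ratios scaling 5 of these 12 remained lower, 16.7% of the 30, beside 14.0% of all tested genes. They were CENPP, CENPC, SKA3, CENPQ (log2 change -0.40 in the deposited FPKM) and KNL1 (-0.57). Among 15 genes of cohesin and of other condensin subunits, 4 (26.7%) fell, near the 23.0% of all tested genes. The cohesin core subunit SMC3 went from 17.8 ± 1.99 to 11.8 ± 0.544 FPKM (limma adjusted p = 0.00093). The others were RAD21 (log2 change -0.33), the shugoshin SGO2 (-0.42), which protects cohesin, and the condensin II subunit NCAPG2 (-0.33). The NCAPG2 call was lost with that scaling (limma adjusted p = 0.1). The other cytokinesis genes had 5 of 11 lower and 1 higher. RHOA, the GTPase of the contractile ring, fell from 458 ± 11.7 to 329.6 ± 4.90 FPKM, and TSG101, an ESCRT subunit of the final cut, fell from 34.6 ± 0.928 to 26.6 ± 1.34 FPKM. CEP55, VPS4B and PDCD6IP, which also act in that step, had log2 changes of -0.33, -0.28 and -0.25. These 3 calls were lost with that scaling (limma adjusted p = 0.061, 0.078 and 0.16), leaving 2 of 11 (18.2%) lower, beside 14.0% of all tested genes. MYH10, a nonmuscle myosin heavy chain that also works outside division, rose from 53.5 ± 6.93 to 77.9 ± 8.61 FPKM (limma adjusted p = 0.0033).

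Of 14 genes in the list of mitotic gene transcription, which holds both activators and repressors of such genes, 3 (21.4%) fell, close to the 23.0% among all tested genes. They were NFYC (log2 change -0.42), RBBP4 (-0.31) and LIN54 (-0.36), a subunit of the MuvB complex. FOXM1 and MYBL2, chosen after their values were seen as the best known activators of G2/M genes, did not pass, at 11.4 ± 2.43 and 10.1 ± 1.06 FPKM and 31.4 ± 6.36 and 24.7 ± 1.38 FPKM (limma adjusted p = 0.38 and 0.063). Of 13 regulators of CDK1, 3 (23.1%) fell, close to the 23.0% among all tested genes. The phosphatase gene CDC25A went from 2.73 ± 0.229 to 1.77 ± 0.373 FPKM (limma adjusted p = 0.0098), and ARPP19 and ENSA, inhibitors of the phosphatase that opposes CDK1, had log2 changes of -0.42 and -0.29. The ENSA call was lost with median-of-ratios scaling (limma adjusted p = 0.087), leaving 2 of 13 (15.4%) lower, beside 14.0% of all tested genes. Of 17 genes of the anaphase-promoting complex and its inhibitors, 4 (23.5%) fell, also close to the 23.0% among all tested genes. They were CDC27 (log2 change -0.47), FBXO5 (-0.42), ANAPC15 (-0.34) and CDC26 (-0.26). With that scaling 2 of the 17 (11.8%) were lower, beside 14.0% of all tested genes, the calls of ANAPC15 and CDC26 being lost (limma adjusted p = 0.083 and 0.16). DNA replication genes, the neighbouring wave of the cell cycle, had 17 of 39 lower and 1 higher, with a median log2 change of -0.25 beside -0.32 for the mitotic members. CCNE2 went from 5.87 ± 0.925 to 3.04 ± 0.234 FPKM and RRM2 from 108 ± 13.1 to 71.3 ± 5.90 FPKM, while E2F2 rose from 0.360 ± 0.116 to 1.17 ± 0.0850 FPKM (limma adjusted p = 0.00028). E2F2 was under 1 FPKM in every control and passed the filter only through the libraries labelled YAP. A call in the other direction was therefore hardly possible for it. After median-of-ratios scaling 13 replication genes (33.3%) and 17 mitotic members (34.0%) were lower, and the difference between these lists was not tested.

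**Figure D5:**
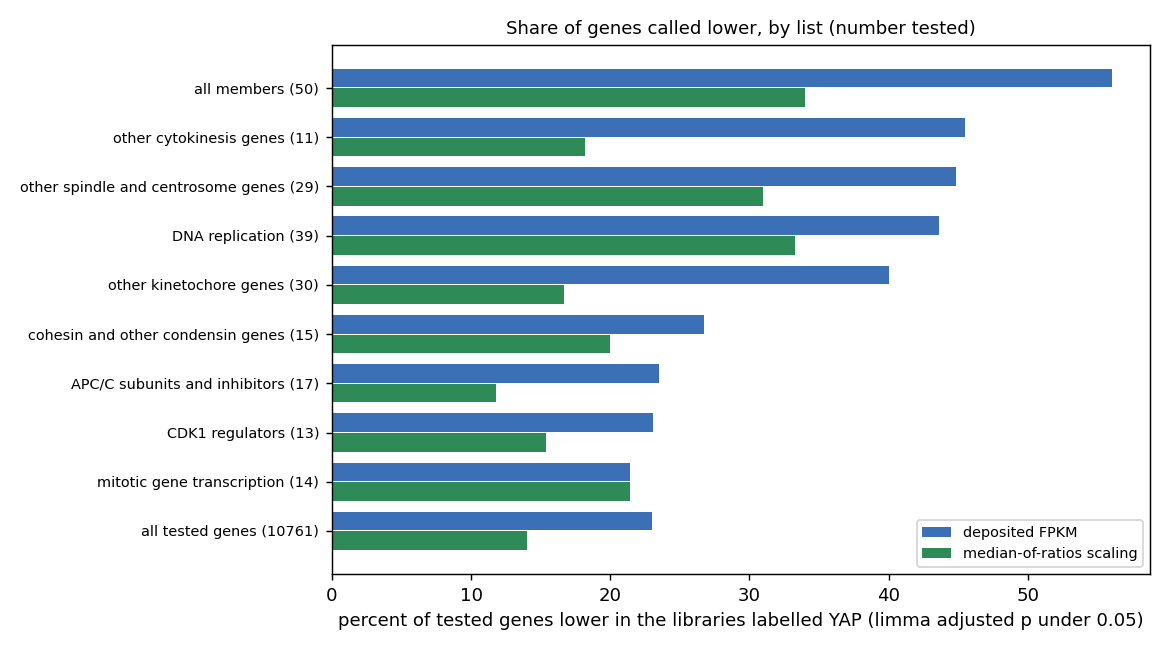
Share of tested genes that were lower in the libraries labelled YAP at limma adjusted p under 0.05, for the 50 members, 8 lists of other cell cycle genes and all 10761 tested genes, in the FPKM as deposited and with median-of-ratios scaling (number tested in parentheses). The members stand at 56.0% and 34.0%, all tested genes at 23.0% and 14.0%, and the replication list at 43.6% and 33.3%.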

How the data were processed

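RNA was measured in 3 control libraries and 3 labelled YAP. Per the submitters' processing notes, the tools were fastp, HISAT2 and HTSeq; their settings, the genome build, annotation and strand handling are unknown here. FPKM values were deposited by the authors as 2 tables, of which 6 per-sample columns, named TAZ and pcDNA, match no sample and were not used. All 50 members, and 16262 of 16285 gene identifiers, were found in RefSeq's goat gene table (assembly ARS1.2), used for names alone.

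Whole reads recovered from the FPKM steps were whole within 0.05 for 99.987% of genes above 0 and gave the totals per library. No pair of replicates agreed within counting noise (chi-square per gene 7.91 to 31.8), so 6 samples were kept. The 10761 genes reaching 1 FPKM in 3 or more libraries were fitted as log2(FPKM + 1), a pseudocount of 1, with limma 3.58.1 in R 4.3.3 (eBayes with trend, two-sided, Benjamini-Hochberg over all tested genes, threshold 0.05). Fold changes on this scale understate those of low genes. Confidence intervals are 95%.

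The members and lists were chosen with earlier results of these data known. Values by library are given for the 3 members of each role with the smallest adjusted p, the most abundant, MKI67, TOP2A, CCNB1, CDK1 and PLK1, and those against the main direction. From each further list the 3 with the smallest adjusted p are named. In the fit of the deposited FPKM, counts of 5 or fewer in a role or list of cell cycle genes are named in full, and others where the text says so. Alternatives were a pseudocount of 0.1, other filters (none, 0.1 FPKM), 3 scalings, the replicate number as a block, limma-voom with TMM factors on recovered reads, and leaving out each library. The fit was also run on simulated counts that lacked the shared differences between replicates seen here. That run therefore cannot show how such differences affect the calls.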

Additional observations from a re-analysis of the deposited data

How the results depend on the processing

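Leaving out 1 library gave 14 to 34 lower members, 0 to 1 higher and a median log2 change of -0.37 to -0.25. With median-of-ratios scaling as well it gave 4 to 23 lower, 0 to 2 higher and a median of -0.28 to -0.18. With both changes, 4 members (8.0%) were lower without YAP replicate 1, 8 (16.0%) without control replicate 1 and 9 (18.0%) without YAP replicate 2, beside 7.79%, 12.0% and 12.0% of all tested genes. The 28 lower members became 17 with median-of-ratios scaling alone, 18 with the same sum over tested genes, 19 with no filter on low values and 16 with limma-voom on recovered reads, beside 14.0%, 15.9%, 14.3% and 12.9% of all tested genes. Limma-voom put 1 member (INCENP) higher. Of all tested genes 2476 were lower and 1392 higher. The lower count was 1507 with median-of-ratios scaling, 1393 with limma-voom, 1387 to 2273 without 1 library and 838 to 1476 with both changes, and the higher count 1024 to 1333 and 1229 to 1637.

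The replicate number as a block gave 39 lower and 1 higher member, and 3745 lower genes (34.8%). With median-of-ratios scaling too, the block gave 30 lower and 2 higher members, and 2590 lower (24.1%) and 2459 higher genes (22.9%). The labels do not say what the numbers share: deviations of same-numbered libraries correlated at -0.018, 0.59 and 0.60 for numbers 1, 2 and 3, and control replicate 1 correlated best with another number.

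Sign changes touched only members that had not passed. PTTG1 was at 0.029 with median-of-ratios scaling, with or without the block, 0.026 with quantile normalization and 0.041 with limma-voom. ESPL1 was at 0.022 with that scaling, with or without the block, and 0.041 with limma-voom, and CDCA8 at 0.00050 with limma-voom. Leaving out 1 library alone gave log2 changes of -0.15 to 1.8e-05 for PTTG1, -0.12 to 0.056 for ESPL1 and -0.25 to 0.0038 for ECT2. It left those of TOP2A, CDCA8, RACGAP1 and AURKA below 0, with lowest values of -0.28, -0.16, -0.23 and -0.33. With median-of-ratios scaling as well, the highest values were 0.083 for PTTG1, 0.12 for ESPL1, 0.069 for ECT2, 0.064 for TOP2A, 0.039 for CDCA8, 0.028 for RACGAP1 and 0.0059 for AURKA. The cause was not tested. Every member had at least 185 reads in each library.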
